A study of Homo sapiens with 6 samples.

Results

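The genes described here are those that encode collagen chains. They were set by symbol, as every gene named COL, a number, A and a number. Of the 25369 genes in the files, 44 met that rule. The choice was made with earlier results of these data known. Each was placed in a class from textbook knowledge of its protein: 11 fibrillar chains, 6 basement membrane chains (type IV) and 27 other chains. The study asked which genes respond when the chromatin remodelling subunit PBRM1 is put back into Caki2, an established human clear cell renal cell carcinoma line that lacks PBRM1 protein. RNA was sequenced from 3 libraries of Caki2+Vector, cells stably infected with an empty doxycycline-inducible lentivirus, and 3 libraries of Caki2+PBRM1, cells infected with the same kind of vector bearing PBRM1. Both groups received doxycycline at 2 µg/mL, so the drug is shared by the controls. Each group is a separately infected and selected population of a single line, so PBRM1 and any other difference between the populations cannot be told apart. Replicates carry the letters A, B and C. The paper calls them biological replicates, but the labels do not say whether they were separate cultures. If they were not, the p-values measure only a spread that may be technical.

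Collagens are secreted proteins in which chains wind around each other into a helix built of Gly-X-Y repeats. Fibrillar collagens such as types I and V assemble into the rope-like fibrils of connective tissue. Type IV collagen forms the sheet-like network of basement membranes, and the kidney is known for switching in the glomerulus from the widely expressed α1 and α2 chains to the α3, α4 and α5 chains. Other collagens decorate fibrils, form beaded filaments or anchor basement membranes to the tissue beneath. Chains are hydroxylated and folded in the endoplasmic reticulum, then trimmed and crosslinked outside the cell.

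Values are normalized counts, that is, reads counted on a gene divided by a size factor for the library, as the authors deposited them. Whole reads could be recovered for every value (within 0.02 of a whole number), which gave 7312955 to 10835355 reads on genes per library. PBRM1 was at 187 ± 7.4 (SD, n = 3) in Caki2+Vector and at 2545 ± 127 (SD, n = 3) in Caki2+PBRM1, which follows the labels and shows that the controls still carried PBRM1 transcript. Vector A stood apart from its group: per degree of freedom, the chi-square between its reads and those of Vector B and C was 3.09 and 2.84, against 1.34 between B and C and 1.19 to 1.22 among the Caki2+PBRM1 libraries. Of 13 renal epithelial markers, 10 were tested, of which 2 were higher and 2 lower. Their summed level was 20208 to 21567 in the controls and 18694 to 19370 in Caki2+PBRM1, and CDH1, LRP2 and CA9, which mark epithelial contacts, proximal tubule and clear cell carcinoma, did not reach the count minimum. Markers of other cells were sparse. Fibroblast markers summed to 35.0 to 36.0 and 33.6 to 40.9 in the groups, with TWIST2 at 0, and endothelial markers to 0.95 to 5.67 and 3.36 to 6.22, with CDH5, TEK and ERG at 0. Leukocyte markers summed to 2005 to 2147 and 1909 to 1944, with CD3E and TYROBP at 0, and CD68, which encodes a lysosomal protein, was the only one tested and fell by 0.11 on the log2 scale (limma adjusted p = 0.046). The part of these markers in the collagen results was not tested. In bulk RNA, fewer cells of a kind and less RNA per cell cannot be told apart.

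Of the 44 collagen genes, 18 reached a normalized count of 10 in at least 3 libraries and were tested, with COL24A1 doing so only through the Caki2+PBRM1 libraries. Comparisons used limma on log2(normalized count + 1), with Benjamini-Hochberg adjustment over all 13303 genes tested and a threshold of 0.05, and fold changes on this scale understate those of genes with low counts. In Caki2+PBRM1, 8 collagen genes rose, 2 fell and 8 did not pass the test, and without Vector A 8 rose and 3 fell, COL4A2 being added. With 10 required in every library, which leaves out COL24A1, 7 rose. Across all genes tested, 29.2% passed, 16.2% as higher and 13.0% as lower. The median log2 change was 0.12 over the tested collagen genes and -0.0036 over all genes tested. The values of the groups did not overlap for 11 of the 18 tested collagen genes, against 41.7% of all genes tested. Calls were spread over the classes. Among 5 tested basement membrane chains, COL4A4 and COL4A5 rose and COL4A1 fell. Among 5 tested fibrillar chains, COL24A1 and COL27A1 rose and COL5A2 fell. Among 8 tested chains of other classes, COL6A1, COL6A2, COL8A1 and COL12A1 rose and none fell. The median log2 change was 0.08 for basement membrane, 0.07 for fibrillar and 0.27 for other chains. With 3 libraries against 3, an exact permutation test on a single gene cannot give a two-sided p below 0.1, which is why the fit across all genes was used.

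**Figure D1:**
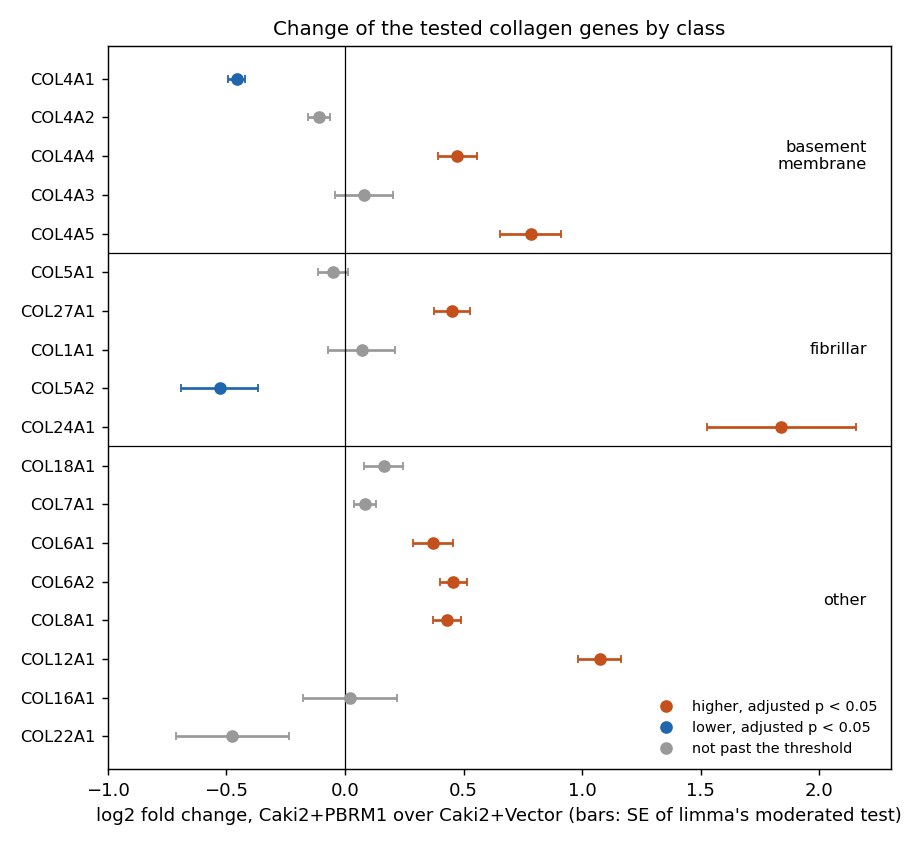
Log2 fold change of Caki2+PBRM1 over Caki2+Vector (x axis, log2(normalized count + 1) scale) for each of the 18 tested collagen genes (y axis), in blocks by class; bars are standard errors of limma's fit. COL24A1 at 1.84 and COL12A1 at 1.07 lie farthest to the right, while COL5A2 at -0.53 and COL4A1 at -0.46 are the genes that fell.

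The basement membrane genes lie in head-to-head pairs, in which neighbouring genes are read away from each other from a shared stretch of DNA. On GRCh37 the gene models of COL4A1 (chr13:110801310-110959504, minus strand) and COL4A2 (chr13:110958159-111165556, plus strand) overlap, since a transcript of COL4A2 begins inside COL4A1. The interval shown for this pair is the 126 bases between the starts of their canonical transcripts, at 110959504 and 110959631. COL4A4 (chr2:227867430-228029169, minus strand) and COL4A3 (chr2:228029340-228179508, plus strand) do not overlap, and the interval shown is the 170 bases between their outermost starts, with 418 between their canonical starts. These intervals are shown because they are the shortest between head-to-head pairs, COL4A5 and COL4A6 having 1415 bases between their canonical starts. In each pair shown, 1 gene passed the test and the other did not. For COL4A3 and COL4A4, however, the ratio between the partners overlapped between groups. Both intervals are printed on the plus strand, with GGGCGG and CCAAT in capitals wherever either was found on either strand (as CCGCCC or ATTGG on the other).
COL4A1/COL4A2, chr13:110959505-110959630: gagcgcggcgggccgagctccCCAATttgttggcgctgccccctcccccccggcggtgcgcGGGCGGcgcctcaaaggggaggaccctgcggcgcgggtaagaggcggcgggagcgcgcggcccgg
COL4A3/COL4A4, chr2:228029170-228029339: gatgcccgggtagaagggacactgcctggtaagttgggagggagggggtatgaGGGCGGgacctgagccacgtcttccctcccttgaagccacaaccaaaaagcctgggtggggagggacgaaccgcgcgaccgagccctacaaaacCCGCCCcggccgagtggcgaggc
The COL4A1/COL4A2 interval was 80.2% G or C and held 1 GGGCGG and 1 CCAAT. Promoters here are the bases of the same length upstream of 19875 protein-coding genes, of which 50.0% hold GGGCGG and 24.1% CCAAT. The COL4A3/COL4A4 interval was 65.9% G or C, with 2 GGGCGG, present in 54.4% of promoters trimmed to its length, and no CCAAT, present in 28.0%. TATAAA was in neither, and is in 6.15% and 7.05% of promoters of these lengths. ACGTG was also searched for, with 0 matches in the COL4A1/COL4A2 interval and 1 in the COL4A3/COL4A4 interval. It is in 12.2% and 15.5% of promoters of these lengths.

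COL4A1 and COL4A2 encode the α1(IV) and α2(IV) chains, which join in the same helix in nearly all basement membranes. COL4A1 was at 7248, 7580 and 7729 normalized counts in Vector A, B and C and at 5397, 5539 and 5491 in PBRM1 A, B and C. All 3 Caki2+PBRM1 libraries were below all 3 controls, and COL4A1 fell by 0.46 on the log2 scale (SE 0.034, limma adjusted p = 1.1e-11). COL4A2 was at 5691, 6557 and 6660 in Caki2+Vector and at 5739, 5971 and 5772 in Caki2+PBRM1. Vector A lay below every Caki2+PBRM1 library while Vector B and C lay above them, so the groups overlapped. The log2 difference of COL4A2 was -0.11 (SE 0.047, limma adjusted p = 0.086). Without Vector A, COL4A2 passed the test at a log2 change of -0.18 (limma adjusted p = 1.5e-07).

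Since both genes were counted in each library, their ratio is free of the scaling between libraries. COL4A1 had 1.27, 1.16 and 1.16 reads per COL4A2 read in Vector A, B and C. The ratio was 0.941, 0.928 and 0.951 in PBRM1 A, B and C. The groups did not overlap, with the ratio above 1 in every control and below 1 in every Caki2+PBRM1 library. The ratio is one of reads and is not corrected for length, so its change, not its distance from 1, is the result.

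COL4A3 and COL4A4 encode the α3(IV) and α4(IV) chains, which are found with α5(IV) in the glomerular and some tubular basement membranes. COL4A4 was at 203, 212 and 235 in Caki2+Vector and at 304, 310 and 287 in Caki2+PBRM1. The Caki2+PBRM1 libraries were all above the controls, and COL4A4 rose by 0.47 on the log2 scale (SE 0.081, limma adjusted p = 4.2e-05). Its partner COL4A3 was at 137, 124 and 143 in Caki2+Vector and at 113, 149 and 170 in Caki2+PBRM1. PBRM1 A was the lowest of all 6 libraries and PBRM1 C the highest, and the log2 difference was 0.08 (SE 0.12, limma adjusted p = 0.68). The ratio of COL4A4 to COL4A3 reads was 1.48, 1.71 and 1.65 in the controls and 2.70, 2.08 and 1.68 in Caki2+PBRM1, with PBRM1 C within the range of the controls.

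COL4A5 on the X chromosome encodes α5(IV), the chain most often mutated in Alport syndrome, a hereditary kidney disease. It was at 71.9, 68.0 and 80.3 in Caki2+Vector and at 116, 116 and 151 in Caki2+PBRM1. No library of the groups overlapped, and COL4A5 rose by 0.78 on the log2 scale (SE 0.13, limma adjusted p = 2.4e-05). COL4A6, which is divergently paired with COL4A5, stayed below the count minimum. Its normalized counts were 0.95, 3.78 and 3.60 in the controls and 8.67, 8.89 and 10.1 in Caki2+PBRM1, and the groups did not overlap. Counting noise is large at this level, since the largest of these values is 12 reads.

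**Figure D2:**
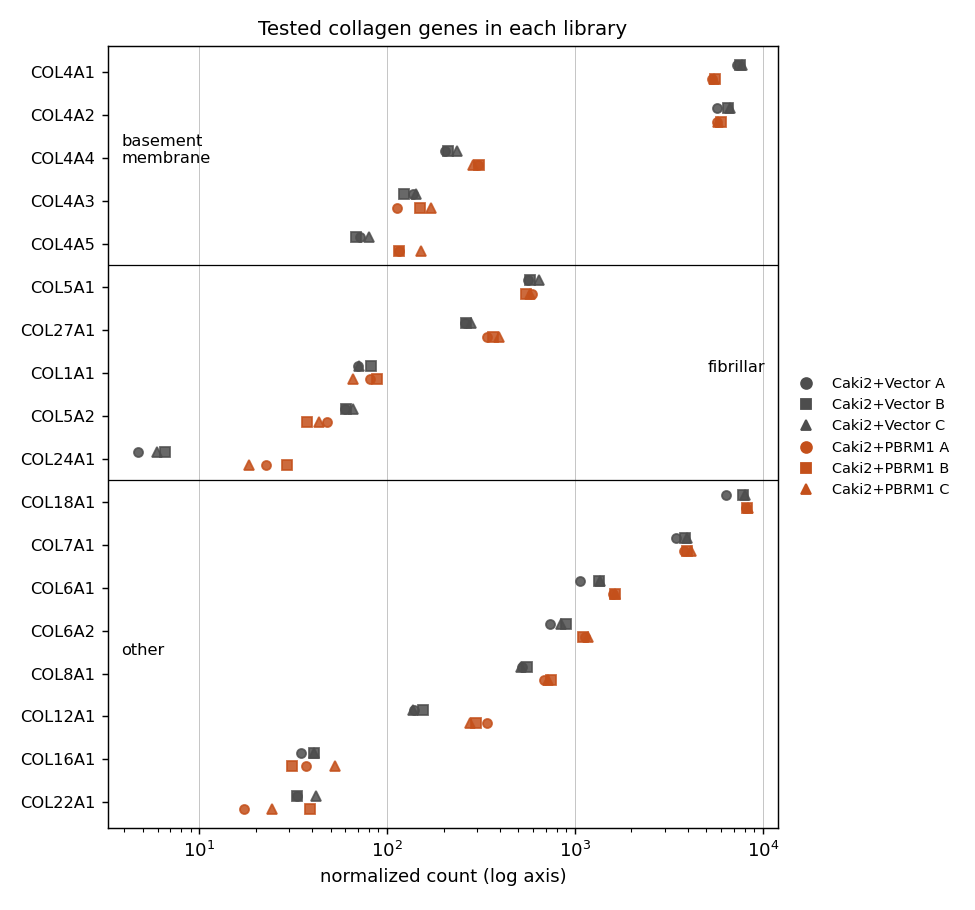
Normalized count (x axis, log scale) of each tested collagen gene (y axis) in each of the 6 libraries, in blocks by class. COL4A1 is lower in all 3 Caki2+PBRM1 libraries than in the controls, COL4A2 overlaps, and Vector A lies left of the other controls for COL18A1 (6404), COL6A1 (1060) and COL4A2 (5691).

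Among the fibrillar genes, COL5A1 had the highest level per kilobase of exon, at 53.1 ± 3.8 in the controls and 51.2 ± 1.9 in Caki2+PBRM1, followed by COL27A1 at 19.1 ± 0.76 and 26.1 ± 1.8 (SD, n = 3 each). COL1A1, which encodes the α1 chain of type I collagen, the main collagen of connective tissue, was at 74.3 ± 6.8 and 78.5 ± 12 normalized counts (SD, n = 3 each), with a log2 difference of 0.07 (SE 0.14, limma adjusted p = 0.75). COL1A2, which encodes the other chain of type I, had no read in 5 libraries and 1 read in PBRM1 C. COL3A1, the type III chain of elastic tissues, had at most 2 reads in any library. COL2A1, the cartilage chain, and COL5A3 had none in any, which allows up to 3 reads per library.

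Type V collagen nucleates fibrils and contains α1(V) and α2(V) chains. COL5A1 was at 562, 574 and 641 in Caki2+Vector and at 592, 549 and 573 in Caki2+PBRM1. The groups overlapped, with a log2 difference of -0.05 (SE 0.061, limma adjusted p = 0.59). COL5A2 was at 59.6, 60.5 and 65.9 in Caki2+Vector and at 47.7, 37.3 and 43.6 in Caki2+PBRM1. All 3 Caki2+PBRM1 libraries were lower, and COL5A2 fell by 0.53 on the log2 scale (SE 0.16, limma adjusted p = 0.014). This call was lost with DESeq2 (log2 change -0.54, adjusted p = 0.089) and without PBRM1 B (-0.43, limma adjusted p = 0.080). COL5A1 had 9.43, 9.50 and 9.73 reads per COL5A2 read in the controls and 12.4, 14.7 and 13.1 in Caki2+PBRM1. The ratio was higher in every Caki2+PBRM1 library than in any control, as it was lower in every one for COL4A1 over COL4A2.

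COL27A1 and COL24A1 encode the chains of types XXVII and XXIV, fibrillar collagens best known from cartilage and bone. COL27A1 was at 259, 263 and 279 in Caki2+Vector and at 341, 364 and 393 in Caki2+PBRM1. The groups did not overlap, and it rose by 0.45 on the log2 scale (SE 0.075, limma adjusted p = 2.7e-05). COL24A1 was at 4.73, 6.61 and 5.99 in Caki2+Vector, which is 5 to 7 reads a library, and at 22.7, 29.3 and 18.5 in Caki2+PBRM1. Each Caki2+PBRM1 library was well above each control. COL24A1 rose by 1.84 on the log2 scale (SE 0.31, limma adjusted p = 3.5e-05). At such low counts the size depended on the added constant, with 1.48 when 4 was added in place of 1. COL24A1 reached the count minimum only in the Caki2+PBRM1 libraries, so its test and its rank depend on its being high there. With no filter, the change of COL6A3 was larger, at 2.06 against 1.84 for COL24A1. COL24A1 would not have been tested had 10 been required in every library.

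COL24A1 is also a gene for which the study designed PCR primers, and they are shown to place that assay on the gene. It lies at chr1:86194916-86622626 on the minus strand.
COL24A1 forward, chr1:86210382-86210401: cccagcacgaatctgcaaag
COL24A1 reverse, chr1:86203107-86203126: gtctggccaccagcactgaa
Each had 1 exact match in the gene on GRCh37. The forward primer lies in exon 57 and the reverse primer in exon 58 of 60 exons, so the product spans an intron near the 3′ end of the gene. Fibrillar genes are built largely of coding exons of 54 bases, a length that encodes whole Gly-X-Y repeats: 305 of 649 coding exons (47.0%) had it, against 12 of 296 (4.05%) in the type IV genes and 157 of 1057 (14.9%) in the other genes. The last share hides FACIT genes close to the fibrillar ones, with COL9A2, COL9A3 and COL22A1 at 43.8% each against 41.2% for COL1A1, the lowest of the fibrillar genes.

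Among the collagens of other classes, the 4 genes that passed the test were all higher in Caki2+PBRM1. Type VI collagen makes the beaded filaments that link cells to the matrix around them, from the products of COL6A1, COL6A2 and COL6A3. COL6A1 was at 1060, 1349 and 1366 in Caki2+Vector and at 1594, 1626 and 1633 in Caki2+PBRM1. The groups did not overlap, and it rose by 0.37 on the log2 scale (SE 0.082, limma adjusted p = 0.0060). COL6A2 was at 740, 895 and 844 in Caki2+Vector and at 1124, 1102 and 1167 in Caki2+PBRM1, and it rose by 0.46 (SE 0.058, limma adjusted p = 5.6e-07). Vector A was the lowest library for both genes, and without it COL6A1 still passed the test, at 0.25 (limma adjusted p = 4.4e-07). The ratio of these neighbours on chromosome 21 overlapped between groups, with 1.43, 1.51 and 1.62 COL6A1 reads per COL6A2 read in the controls and 1.42, 1.48 and 1.40 in Caki2+PBRM1. COL6A3 was below the count minimum, at 1.89, 2.83 and 1.20 in the controls and 7.58, 14.2 and 12.6 in Caki2+PBRM1. It was higher in each Caki2+PBRM1 library, but per kilobase of exon it was at 0.092 and 0.53, against 155 and 212 for COL6A2.

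COL12A1 encodes type XII collagen, a fibril-associated collagen with interrupted triple helices (FACIT) that binds the surface of fibrils. It was at 139, 156 and 137 in Caki2+Vector and at 339, 299 and 276 in Caki2+PBRM1. With no overlap, COL12A1 rose by 1.07 on the log2 scale (SE 0.092, limma adjusted p = 2.0e-10). COL8A1 encodes a short-chain collagen of the matrix beneath vessel and corneal endothelium. It was at 524, 555 and 517 in Caki2+Vector and at 682, 749 and 721 in Caki2+PBRM1. The groups did not overlap, and COL8A1 rose by 0.43 (SE 0.058, limma adjusted p = 1.0e-06).

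COL18A1 encodes the basement membrane proteoglycan from which endostatin is cut, and it was at 6404, 7848 and 8006 in Caki2+Vector and at 8183, 8288 and 8322 in Caki2+PBRM1. The groups did not overlap, but Vector A was far below the other controls, and the log2 difference of 0.16 did not pass the test (SE 0.081, limma adjusted p = 0.19). Without Vector A it was 0.06 (limma adjusted p = 0.063). The exons of COL18A1 share 1563 bases with SLC19A1, a folate carrier gene on the opposite strand that was at 355 ± 39 (SD, n = 3) and 373 ± 12 (SD, n = 3), and the counting is not stated to use strand. COL7A1, the anchoring fibril chain, was at 3435, 3866 and 3972 in Caki2+Vector and at 3816, 3965 and 4154 in Caki2+PBRM1. Its groups overlapped, with a log2 difference of 0.08 (SE 0.047, limma adjusted p = 0.19). COL16A1 and COL22A1, both FACIT genes, were at 17.3 to 52.9 over the libraries and did not pass either, with log2 differences of 0.02 and -0.47 (limma adjusted p = 0.95 and 0.14).

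**Figure D3:**
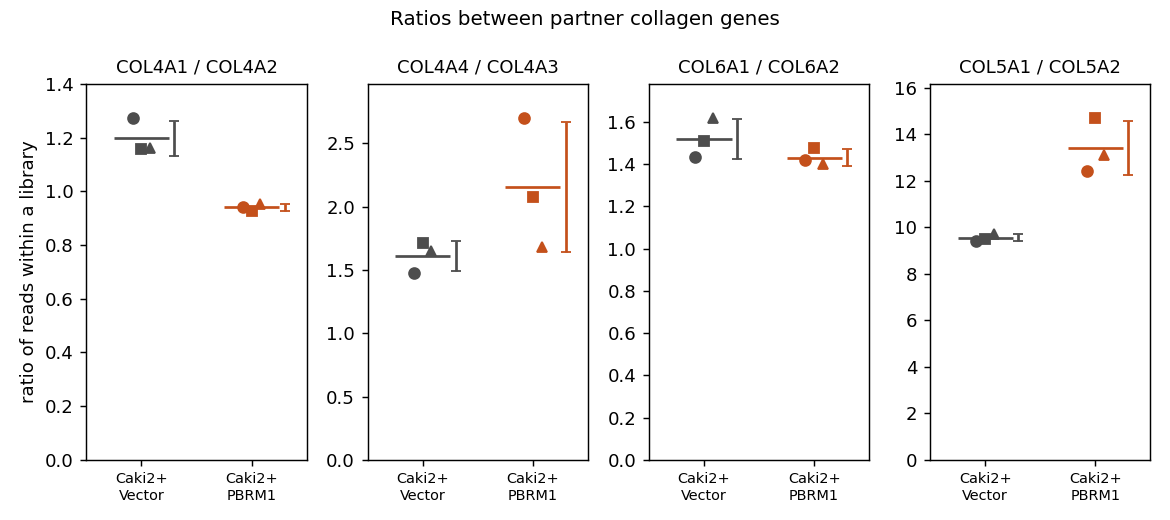
Ratio of reads between partner genes within each library (y axes, from 0), by group (x axis); points are libraries (circle A, square B, triangle C), lines are means and bars are SD (n = 3). COL4A1/COL4A2 is lower (0.928 to 0.951 against 1.16 to 1.27) and COL5A1/COL5A2 higher (12.4 to 14.7 against 9.43 to 9.73) in Caki2+PBRM1, while the groups overlap for COL4A4/COL4A3 and COL6A1/COL6A2.

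Levels can be compared between genes only per length of transcript. Per kilobase of the union of a gene's exons, COL18A1 was the highest of the collagens, at 877 ± 104 normalized counts in the controls and 976 ± 8.5 in Caki2+PBRM1 (SD, n = 3 each). COL4A1 followed at 513 ± 17 and 373 ± 4.9. COL7A1 was at 338 ± 26 and 357 ± 15, and COL4A2 at 327 ± 28 and 302 ± 6.5. The difference between COL7A1 and COL4A2 in Caki2+Vector was within their spread. The order depends on the length used. Per kilobase of the longest transcript, COL4A1 in Caki2+Vector was at 1150, COL18A1 at 1127 and COL4A2 at 978, all above COL7A1 at 405. In Caki2+PBRM1, COL18A1 was at 1255, COL4A2 at 904, COL4A1 at 837 and COL7A1 at 429 on that length. The lengths come from an annotation other than the one used for counting. The type VI genes came next on either length, with COL6A1 at 227 ± 31 and 292 ± 3.7 and COL6A2 at 155 ± 15 and 212 ± 6.2 per kilobase of exon union.

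By reads and without regard to length, the collagen genes together took 0.307% to 0.352% of the reads on genes in the controls and 0.314% to 0.323% in Caki2+PBRM1. Their total therefore overlapped between groups while its make-up shifted. COL18A1, COL4A1, COL4A2 and COL7A1 supplied 85.3% to 85.4% of the collagen sum in the controls and 80.8% to 81.1% in Caki2+PBRM1. Type IV genes supplied 48.0% to 50.0% and then 40.4% to 41.3%, with COL4A1 alone at 25.7% and 18.8% of the mean sums. COL4A2 also supplied less of the mean sums in Caki2+PBRM1 than in the controls. The other 2 of these 4 genes went the other way, COL18A1 from 25.3% to 28.4% and COL7A1 from 12.8% to 13.7%. Neither passed the test on its normalized counts. COL6A1 also supplied more, from 4.30% to 5.56%, and COL6A2 from 2.82% to 3.89%. Fibrillar genes were a small fraction throughout, at 3.28% to 3.61% and 3.68% to 3.84%. For scale, FN1, which encodes fibronectin, took 2.02% to 2.16% of all reads on genes in the controls and 3.79% to 3.89% in Caki2+PBRM1, more than all collagen genes combined.

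The 26 collagen genes below the count minimum reached at most 14.2 normalized counts in any library. COL2A1, COL5A3 and COL6A5 had no read in any of the 6 libraries, which allows up to 3 reads in each. Of the other 23, 16 never exceeded 5 normalized counts. Beside COL6A3 and COL4A6, the groups did not overlap for COL17A1, the hemidesmosome collagen, at 0 to 0.95 and 2.52 to 4.44. Nor did they for COL10A1, the collagen of hypertrophic cartilage, at 0 in the controls and 0.84 to 1.08 in Caki2+PBRM1, which is 1 read in each. COL26A1 was at 2.83 to 3.79 and 4.33 to 5.88. In all 5 of these genes, of 23 with reads, the Caki2+PBRM1 libraries were the higher ones. Among all 6077 genes below the minimum with reads, 5.12% were higher and 4.38% lower in Caki2+PBRM1 without overlap. At 0 to 16 reads a library, the depth does not allow a firm statement on size. When the count minimum was dropped, 19.5% of all 19380 genes with reads passed the limma test. Of the 26, COL6A3 (log2 change 2.06, adjusted p = 1.7e-04), COL4A6 (1.54, 0.0062) and COL17A1 (1.48) were then called higher and COL21A1, a FACIT gene at 0 to 6.61, lower (-1.71).

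**Figure D4:**
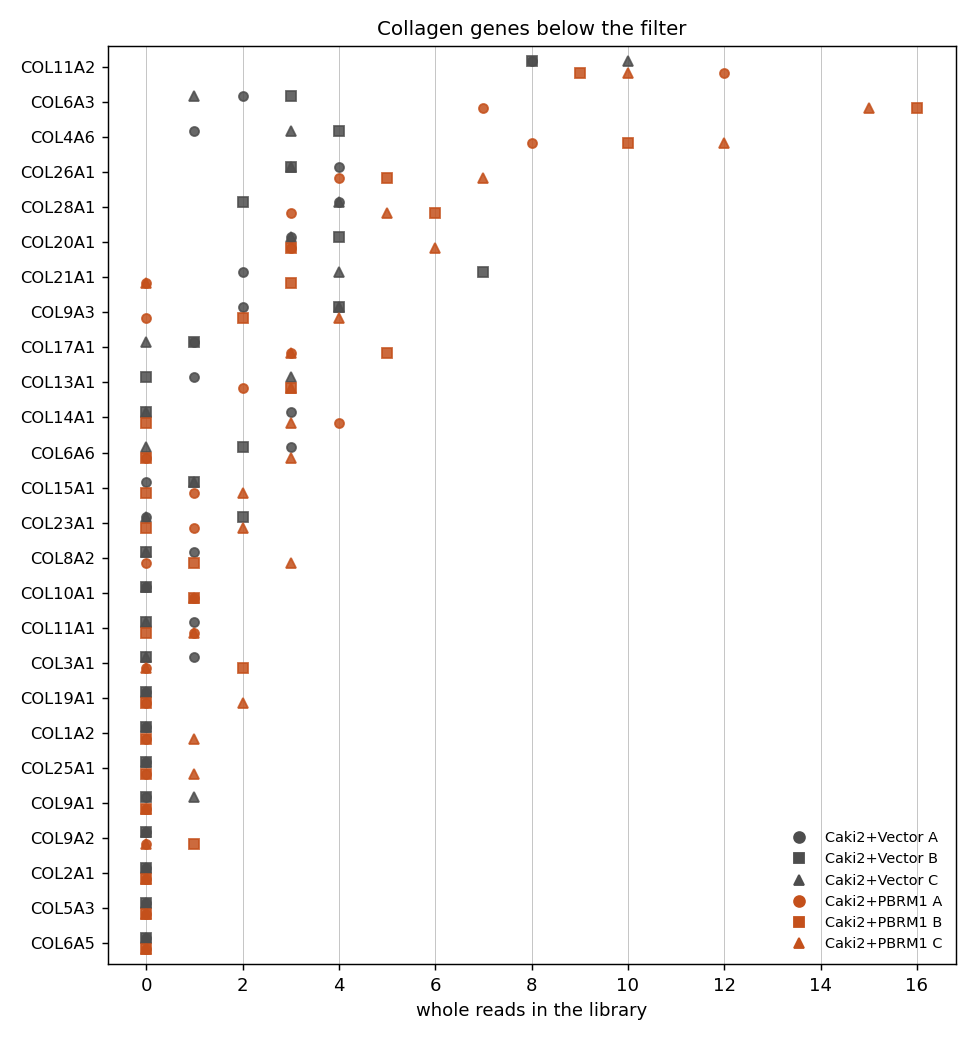
Whole reads (x axis) of the 26 collagen genes below the count minimum (y axis, ordered by total) in each of the 6 libraries. COL6A3 and COL4A6 have more reads in each Caki2+PBRM1 library than in any control, and COL2A1, COL5A3 and COL6A5 stay at 0.

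Genes that make, crosslink and bind collagen were also read, by lists of known members, beside 16.2% higher and 13.0% lower among all genes tested. All these lists were chosen with earlier results of these data known, so their counts are no independent test against those shares. Of 17 tested genes that modify and fold chains, 10 rose and 1 fell. The prolyl 3-hydroxylase gene LEPREL2 rose by 0.71 on the log2 scale (limma adjusted p = 1.4e-05) and FKBP10, a prolyl isomerase, by 0.58 (2.3e-12), while LEPREL1, another prolyl 3-hydroxylase, fell by 0.10 (0.046). The LEPREL1 call was lost with DESeq2, with no filter, and without PBRM1 A, B, C or Vector B. Of 15 tested genes for procollagen cleavage and crosslinking, 6 rose and 1 fell, with 5 to 6 higher and 0 to 2 lower when a library was left out. LOX, which oxidizes lysines for crosslinking, went from 687 to 1493 normalized counts, a log2 rise of 1.12 (limma adjusted p = 2.2e-17). TLL2, a tolloid-like protease, rose by 0.95 (1.5e-04), and ADAMTS14, a procollagen N-proteinase, fell by 0.56 (0.0097), a call that was lost with DESeq2 and without PBRM1 A. The median log2 change was 0.19 for the first list and 0.30 for the second.

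All 5 tested of 10 collagen receptors rose, with the endocytic receptor MRC2 at 0.60 (limma adjusted p = 3.0e-09) and the integrin chain ITGA1 at 0.52 (0.0032) the highest. Of 8 collagen-degrading enzymes, 1 was tested and it did not pass. The 15 basement membrane partners of type IV collagen were split, with 6 higher and 3 lower. The higher count was 8 without Vector A, and 4 without PBRM1 B or without PBRM1 C. NID1, nidogen, which bridges laminin and type IV collagen, was at 19.7 and 62.0 normalized counts and rose by 1.61 on the log2 scale (limma adjusted p = 3.1e-07). LAMA1, a laminin α chain, rose by 1.08 (5.4e-13), whereas the laminin chains LAMC3 and LAMA3 fell by 0.49 (1.2e-05) and 0.20 (0.0051). Of 5 tested fibril-associated proteoglycans and glycoproteins, 4 rose, with TNC, tenascin C, at 1.27 (5.3e-10) and THBS1, thrombospondin, at 1.23 (8.1e-19). The median log2 change was 0.38 for receptors, 0.22 for basement membrane partners and 0.92 for the fibril-associated genes, against -0.0036 over all genes tested.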

How the data were processed

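RNA-seq values were taken from 6 libraries, 3 per group, with groups and replicate letters from the sample labels. Per the study's methods and notes, the authors aligned reads with STAR to hg19, counted them per gene of the UCSC annotation with HTSeq and scaled them with DESeq2 (versions not given in the sources used here). The deposited values are thus a signal of counts divided by size factors (0.834 to 1.19), and whole reads were recovered for 100% of them. From these, limma 3.58.1 (R 4.3.3, trend and robust) was fitted on log2(value + 1) for genes at 10 or more in at least 3 samples. edgeR 4.0.16, DESeq2 1.42.0 and voom were run on recovered reads as alternatives, with other pseudocounts, filters and scalings and each sample left out. The code of the fits was tested on simulated counts. Collagen members and gene lists were chosen with earlier results of these data known. Every tested collagen gene is named, and from each pathway list at most the 2 highest and 2 lowest changes past the threshold. Lengths, positions and promoters come from GENCODE 44 on GRCh37. At these depths, genes under 10 counts carry large counting error.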

Additional observations from a re-analysis of the deposited data

How the results depend on the processing

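The collagen calls were recomputed under 16 other settings, 6 of which left out a library. COL4A1, COL4A4, COL4A5, COL6A1, COL6A2, COL8A1, COL12A1 and COL27A1 kept their direction and call in all 16, and COL24A1 in the 12 in which it was tested. DESeq2 called 2553 genes in place of 3886, with 1 collagen gene lower, 0 fibrillar genes lower and 3 pathway genes lower (5 in the main comparison). Total count scaling called 4406 genes, of which 1625 (36.9%) were higher, against 2152 (55.4%), with 2 basement membrane chains and 8 pathway genes lower. Requiring 10 in every sample left 1 fibrillar gene higher, and no filter gave 1 other chain lower. Leaving out 1 library gave 2798 to 4154 called genes, 1 to 2 fibrillar genes higher and 0 to 1 lower, 1 to 2 basement membrane chains lower, 0 to 1 other chains lower and 3 to 6 pathway genes lower. Uncalled genes changed sign. COL16A1 was at -0.032 with total count scaling and ranged from -0.19 (without PBRM1 C) to 0.19 with a library left out, being -0.049 without Vector A. Ranges over left-out libraries were -0.023 to 0.19 for COL1A1 (lowest without PBRM1 B), -0.050 to 0.25 for COL4A3 (lowest without PBRM1 C) and -0.087 to 0.0077 for COL5A1 (highest without Vector C). COL22A1 passed without PBRM1 B (-0.77), COL18A1 (0.22) and COL7A1 (0.13) without Vector C. Why signs or calls changed was not tested for any setting. With a replicate block on the letters, 4107 genes were called and 2 basement membrane chains were lower, COL4A2 being added, while COL18A1 was called higher. Over all genes tested, deviations of same-letter libraries correlated at -0.008 to 0.014, and only Vector C correlated best with its own letter. A correlation over all genes does not show whether the letters pair the samples for single genes. With the block, the SE of COL18A1 was 0.041 against 0.081 without it, and that of COL24A1 0.33 against 0.31. Depth limits the 26 genes below the count minimum.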
